A study of Caenorhabditis elegans with 2 samples.

Results

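The 6 genes hsp-1, hsp-110, hsp-3, hsp-4, hsp-6 and hsp-60 encode main heat shock chaperones of the cytosol, the endoplasmic reticulum and the mitochondrion of Caenorhabditis elegans. The proteins are of the 70 kDa HSP70 class, to which hsp-110 adds a larger relative, and of the 60 kDa HSP60 type. The genes were taken by name from the Ensembl annotation of WBcel235, all 6 were found, and they are 6 of 19973 nuclear protein-coding genes. The peaks come from chromatin immunoprecipitation and sequencing (ChIP-seq) of LIR-3, a protein of the LIN-26-related family, in whole hermaphrodite L1 larvae collected 6 h after synchronization, which had been starved at L1 following bleaching. All larvae were of strain OP312, genotype unc-119(ed3) III; wgIs312, a single transgenic line that expresses LIR-3 with a C-terminal GFP-FLAG tag, and the antibody was against GFP. The 2 biological replicates form the single group, and the control experiment named in the labels was not analysed here, so there was no contrast to test. Read depth is unknown, since the files hold regions without read counts. The question the design addresses is where along the genome the tagged protein is found, here at chaperone genes.

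HSP70 proteins bind exposed hydrophobic stretches of unfolded polypeptides in a cycle driven by ATP. J-domain proteins start the cycle, and nucleotide exchange factors, HSP110 among them, end it. HSP60 forms a barrel that encloses mitochondrial proteins and is closed by its partner HSP10. In worms some of these genes serve as reporters of stress responses: hsp-4 is used for the unfolded protein response of the endoplasmic reticulum, and hsp-6 and hsp-60 for that of mitochondria.

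An IDR summit lay upstream of 4 of the 6 genes, hsp-1, hsp-110, hsp-3 and hsp-60, and within 1500 bp of neither hsp-4 nor hsp-6. A summit is the position the authors give for the strongest point of a peak, and the IDR set is their list of peaks that passed a threshold on the irreproducible discovery rate between replicates, 1894 of them on nuclear chromosomes. Within 500 bp of the annotated 5' end, the window that counts a gene as having a peak, there was a summit at 3 of the 6 genes, hsp-1, hsp-110 and hsp-3. Of all protein-coding genes 6.09% had one. The hsp-60 summit lay 605 bp upstream, outside that window, and was the strongest of the 4. With a window of 1000 bp the count was 4 of 6, against 7.87% of all protein-coding genes, and with 250 bp it was 1 of 6, hsp-3, against 3.89%. Any base of the peak in the 500 bp window gave 4 of 6 against 6.72%, and the 947 strongest IDR peaks gave 3 of 6 against 3.71%. With each summit kept for the closest gene the count was 1 of 6, hsp-3, against 4.22%, and for the closest protein-coding gene 2 of 6, hsp-1 and hsp-3, against 4.75%. The count was 3 of 6 from the 5' end of any transcript (6.41% of all), from RefSeq 5' ends (6.03%), without replicate 1 (6.03%) and without replicate 2 (6.33%).

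The sequence at each of the 4 summits is shown first, since the positions of stress response elements relative to the summits are described from it. Each line runs 5' to 3' on the strand of the chaperone gene, read from the RefSeq copy of WBcel235 (the same assembly as ce11). Letters in capitals are matches to the motifs searched, which are named after the sequences. The hsp-1, hsp-110 and hsp-60 lines hold 100 bases on each side of the summit, and the hsp-3 line stops at the last base before the annotated 5' end.
hsp-1: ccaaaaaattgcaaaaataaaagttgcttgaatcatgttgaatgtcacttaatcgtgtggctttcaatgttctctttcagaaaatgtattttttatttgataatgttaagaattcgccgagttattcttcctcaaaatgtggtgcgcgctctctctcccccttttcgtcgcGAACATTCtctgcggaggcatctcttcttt
hsp-110: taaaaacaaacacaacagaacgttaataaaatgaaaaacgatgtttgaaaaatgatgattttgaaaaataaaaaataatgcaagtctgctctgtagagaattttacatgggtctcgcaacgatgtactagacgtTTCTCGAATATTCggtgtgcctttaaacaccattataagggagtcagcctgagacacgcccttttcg
hsp-3: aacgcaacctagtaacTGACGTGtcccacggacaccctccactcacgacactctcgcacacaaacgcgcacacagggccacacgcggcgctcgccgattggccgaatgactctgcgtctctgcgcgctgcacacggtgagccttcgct
hsp-60: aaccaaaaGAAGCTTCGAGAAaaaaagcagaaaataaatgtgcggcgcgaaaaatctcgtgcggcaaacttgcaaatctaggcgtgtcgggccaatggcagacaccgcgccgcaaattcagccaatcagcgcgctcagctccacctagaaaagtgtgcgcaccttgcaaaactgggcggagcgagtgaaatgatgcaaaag
The hsp-1 line covers chrIV:17278434-17278634 on the plus strand, and the hsp-110 line chrIII:8447080-8447280 on the minus strand. The hsp-3 line covers chrX:6092125-6092272 on the minus strand, and the hsp-60 line chrIII:1619037-1619237 on the plus strand. For hsp-4, which has no IDR peak, the 200 bases before the annotated 5' end are given for comparison.
hsp-4: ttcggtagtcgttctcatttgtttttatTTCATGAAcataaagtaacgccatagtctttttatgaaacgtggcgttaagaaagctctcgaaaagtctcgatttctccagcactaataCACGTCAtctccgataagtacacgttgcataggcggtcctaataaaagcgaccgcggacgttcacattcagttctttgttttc
The hsp-4 line covers chrII:7352646-7352845 on the minus strand.

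The cytosolic genes hsp-1 and hsp-110 both had an upstream peak of similar rank. The gene hsp-1 (WBGene00002005, chromosome IV, 17278959 to 17281330, plus strand) encodes the constitutive cytosolic HSP70. Its summit at 17278534 lay 425 bp upstream of the 5' end, in a peak from 17278366 to 17278701, with a score of 325 in the pooled data. Scores are signal values assigned by the authors, without a unit, and serve here to order the peaks of 1 list. The hsp-1 peak ranked 371 of 1894 by score. In replicate 1 the region that held this summit had a score of 157 and rank 407 among 29982 nuclear regions, and in replicate 2 a score of 176 and rank 395 among 29983. Both replicates thus placed it near the same rank, while their own summits lay 65 bp apart, at 364 bp and 429 bp upstream, more than the upper quartile of 46 bp over the 1807 IDR peaks held by a region in both lists (median 22 bp).

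The hsp-1 summit fell in no annotated gene. Its nearest 5' end, 121 bp upstream of the summit, was that of the non-coding RNA gene F26D10.23 (17278413 to 17278502, plus strand). That gene lies wholly within the peak, and peak positions alone cannot assign the peak to it or to hsp-1. The nearest protein-coding gene upstream, the C-type lectin gene clec-196, ends 1210 bp before hsp-1 and runs in the same direction. A second, weak IDR peak lay past the other end of hsp-1, with its summit at 17281577 in a 3' UTR exon of the neighbouring gene nra-1 and a score of 97.4 (rank 1702).

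The gene hsp-110 (WBGene00016250, chromosome III, 8443910 to 8446909, minus strand) encodes an HSP110 protein, a large relative of HSP70 that acts as its nucleotide exchange factor. Its summit at 8447180 lay 271 bp upstream, in a peak from 8447087 to 8447233, with a pooled score of 366 and rank 321. Replicate 1 gave 216 (rank 245, summit 271 bp upstream) and replicate 2 gave 183 (rank 373, summit 242 bp upstream). The replicate summits were 29 bp apart, between the median and the upper quartile over all IDR peaks.

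This peak is not that of hsp-110 alone. The 443 bp between hsp-110 and the divergent gene rpn-3, a subunit of the proteasome's regulatory particle, hold the summit, which is closer to the 5' end of rpn-3 (173 bp) than to that of hsp-110. It is closer still, at 85 bp, to the 5' end of the non-coding RNA gene C30C11.14. Peak positions alone cannot assign it to any of the 3 genes.

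Of the ER genes, hsp-3 had a strong peak at its 5' end and hsp-4 had none. Both encode an HSP70 of the type known in mammals as BiP, the chaperone that holds newly made secretory proteins. The gene hsp-3 (WBGene00002007, chromosome X, 6089028 to 6092124, minus strand) had its summit at 6092172, 48 bp upstream of the 5' end, in a narrow peak of 141 bp (6092117 to 6092257). Its pooled score was 536 and its rank 173. Replicate 1 gave 243 (rank 192) and replicate 2 gave 319 (rank 143), with summits 50 bp and 44 bp upstream, 6 bp apart and below the lower quartile of 8 bp over all IDR peaks. Among the 1216 protein-coding genes with an IDR summit in the window, the median offset was -187.5 bp (negative values are upstream) and the upper quartile -106.75 bp, so that the hsp-3 summit lay closer to the 5' end than that quartile.

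No other gene shared the hsp-3 summit in the 500 bp window. Between it and the divergent neighbour C15H9.5 lie 1175 bp. The 5' end of hsp-3 is itself annotated in more than one place: of 3 transcripts, C15H9.6a.2 starts at 6092124, C15H9.6a.1 starts 339 bp further downstream, at the 5' end that RefSeq gives, and C15H9.6b.1 starts 1653 bp downstream. From the RefSeq end the summit was at -387 bp, still inside the window.

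At hsp-4 (WBGene00002008, chromosome II, 7350112 to 7352645, minus strand) the nearest IDR summit was 11604 bp away. The pooled list, with its 30000 unfiltered regions that include background, had no summit within 500 bp, and its nearest one lay 910 bp upstream with a score of 35.3 (rank 16097 of 29984). Each replicate's list had a weak region of its own in the window, in different places: replicate 1 at 92 bp downstream of the 5' end with a score of 17.8 (rank 14119) and replicate 2 at 277 bp upstream with a score of 21.6 (rank 12335). For comparison, 35.3% of all protein-coding genes had a pooled pre-threshold summit within 500 bp, and 35.4% had one in each replicate's list.

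Of the mitochondrial genes, hsp-60 lay beside the strongest peak of the set and hsp-6 beside none. The gene hsp-60 (WBGene00002025, chromosome III, 1619742 to 1625803, plus strand) encodes the mitochondrial chaperonin. The peak from 1619031 to 1619260 had its summit at 1619137, 605 bp upstream, with a pooled score of 1080 and rank 39 of the 1894 nuclear IDR peaks. Replicate 1 gave 495 (rank 54, 591 bp upstream) and replicate 2 gave 621 (rank 29, 606 bp upstream), so that the summits were 15 bp apart. In each of the 4 lists this was the only region with a summit in the hsp-60 gene or within 1500 bp of it.

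The hsp-60 peak lies between 2 divergent genes whose products work as a pair. The other is Y22D7AL.10 (WBGene00021248, 1617151 to 1618929, minus strand), which encodes the mitochondrial HSP10 that closes the HSP60 barrel. The summit lay 208 bp upstream of its 5' end, inside the 500 bp window, so that by the window the peak counted for HSP10 and not for HSP60. Between both genes lie 812 bp, and no other gene's 5' end lay within 500 bp of the summit. The hsp-60 transcripts Y22D7AL.5a.1, Y22D7AL.5a.2 and Y22D7AL.5b.1 start within 17 bp of each other, and Y22D7AL.5c.1 starts 3386 bp downstream, so that no annotated start of hsp-60 brings the summit inside the window.

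At hsp-6 (WBGene00002010, chromosome V, 4824124 to 4826760, minus strand), which encodes the mitochondrial HSP70, the surroundings were emptier than at hsp-4. The nearest IDR summit was 95156 bp away and the nearest pooled pre-threshold summit 20882 bp away. The replicate lists had their nearest summits 2753 bp (replicate 1, score 21.2, rank 9431) and 1743 bp (replicate 2, score 26.5, rank 7269) downstream of the 5' end. Neither replicate nor the pooled list therefore had a summit in the hsp-6 window.

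**Figure D1:**
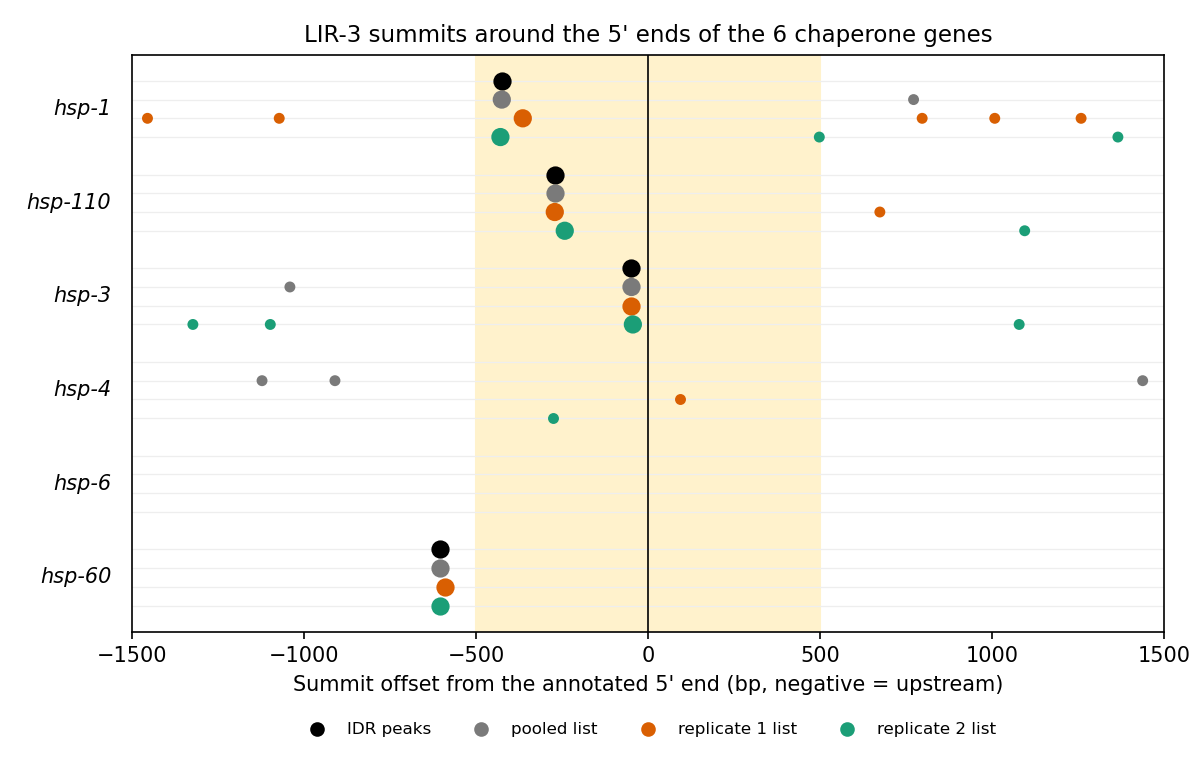
Summit offsets from the annotated 5' end in bp (horizontal axis, negative values upstream) for each of the 6 genes in the IDR set, the pooled list and the lists of replicates 1 and 2 (1 line of points per list), drawn out to 1500 bp on each side. Large points rank within the strongest 1894 nuclear regions of their list, small points below, and the shaded band marks 500 bp on each side. Within these limits, the large points of the 4 lists stand together at hsp-1, hsp-110, hsp-3 and hsp-60, the last outside the band, and hsp-4 and hsp-6 have no large point.

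The 4 genes stood in the same order of peak rank in the pooled list and in each replicate: hsp-60 highest, then hsp-3, hsp-110 and hsp-1. The pooled ranks of hsp-110 and hsp-1, 321 and 371, lay closer together than the ranks of hsp-110 in the 2 replicates, 245 and 373, so these neighbours in the order are not separated beyond the spread between replicates. The ranks of hsp-3 and hsp-60 did not overlap those of any other member. The IDR set was itself made from both replicate lists, so the agreement of the replicates at these peaks is not independent of the choice of peaks. All 4 peaks lay above the upper quartile of scores over nuclear IDR peaks, which was 267 (median 159). Over the 1216 protein-coding genes with an IDR summit in the 500 bp window, the upper quartile was 351 (median 193). The hsp-1 score of 325 lay below that quartile, and those of hsp-110 (366), hsp-3 (536) and hsp-60 (1080) above it.

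**Figure D2:**
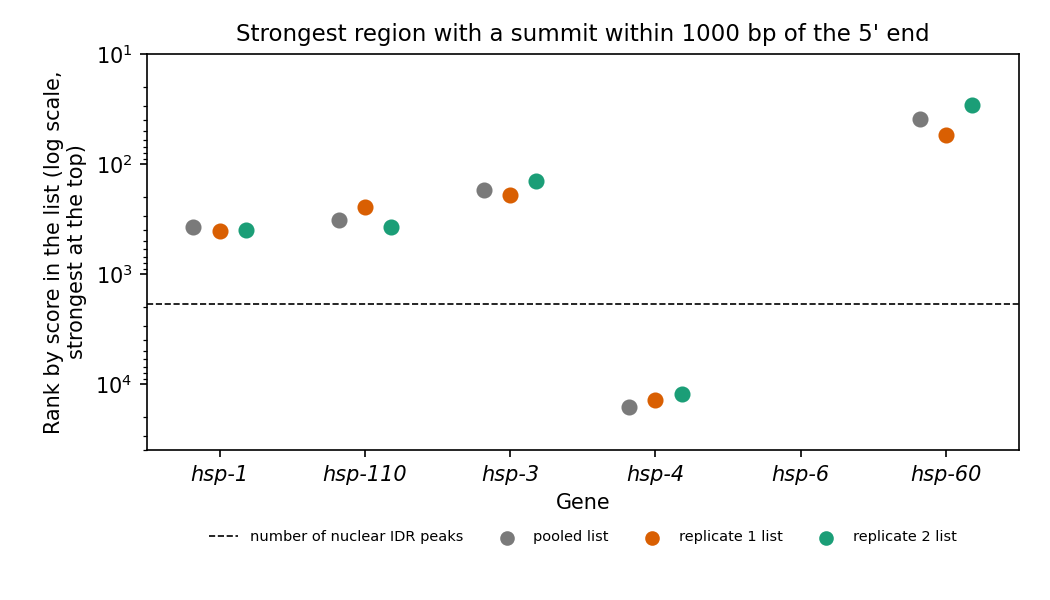
Rank by score (vertical axis, log scale, strongest at the top) of the strongest region with a summit within 1000 bp of each gene's 5' end, in the pooled list and in the lists of replicates 1 and 2. The dashed line marks rank 1894, the number of nuclear IDR peaks. The points of hsp-60, hsp-3, hsp-110 and hsp-1 lie between ranks 29 and 407 in every list, those of hsp-4 lie between ranks 12335 and 16097, and hsp-6 has no region to plot.

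All 4 peaks lay in unique sequence. Every 31-base stretch within each of the 4 peaks occurs once in the reference genome (100%). In the window of 500 bp on each side of the 5' end, the unique share was 100% for hsp-6 and 96.5% for hsp-4, the 2 genes without a peak, and 94.6% to 100% for the others. Base composition differed widely among the 4 summit windows of 201 bases. The GC content was 61.7% at hsp-3, at or above 99.9% of all IDR summit windows, and 50.7% at hsp-60, 37.8% at hsp-1 and 35.3% at hsp-110. The median over all IDR summit windows was 41.8%, with the percentiles 10 and 90 at 33.3% and 51.2%. The part of base composition in the peak scores was not tested.

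Elements known from stress responses lay near some of these summits. The heat shock factor HSF-1 binds repeats of the unit GAA and its complement TTC, and a run of 3 such units, GAA, TTC and GAA or TTC, GAA and TTC, with 2 bases of any kind between neighbours, was searched on both strands. It was found in the summit windows of hsp-110 and hsp-60, 2 of the 4, and in 0.845% of the 1894 nuclear IDR summit windows. At hsp-110 the match TTCTCGAATATTC began 34 bases downstream of the summit, in the direction of the gene. At hsp-60 the match GAAGCTTCGAGAA began 92 bases upstream of the summit, on the side of Y22D7AL.10. The pairs of units GAANNTTC and TTCNNGAA, which overlap the longer pattern, were found in 3 and 2 of the 4 windows and in 8.18% and 8.03% of all. At hsp-1 the pair GAACATTC lay 71 to 78 bases downstream of the summit, and no run of 3 units was found in that window.

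Promoter windows, 250 bases before to 50 after the 5' end, gave a different picture for hsp-1. The run of 3 units was found in 2 of the 6 promoters, hsp-1 and hsp-110, and in 1.97% of 19865 protein-coding promoters. The hsp-1 match GAATTTTCTAGAA lay at -144 to -132 bp, between its summit at -425 bp and the gene. The hsp-110 promoter held the match beside its summit, at -237 to -225 bp, and another, GAAATTTCTAGAA, at -115 to -103 bp. The pairs TTCNNGAA and GAANNTTC were each in the promoters of hsp-1, hsp-4 and hsp-110, 3 of 6, and in 18.9% and 18.5% of all promoters.

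The ER pair shared the 7-base element TGACGTG, which is bound by the unfolded protein response factor XBP1. It was found in the promoters of hsp-3 (-132 to -126 bp) and hsp-4 (-83 to -77 bp, on the other strand), 2 of 6, and in 2.94% of all promoters. In hsp-3 it lay 84 bases upstream of the summit, and hsp-4, which has the element too, had no peak. It was found in 3.17% of all IDR summit windows. The mammalian ER stress response element, CCAAT and CCACG with 9 bases of any kind between them, was in no member window, in 0 of 1894 summit windows and in 0.0302% of promoters. The TATA box, TATAAA on either strand, was in none of the 4 summit windows (16.8% of all) and in the promoters of hsp-3, hsp-60 and hsp-110 (37.9% of all). A match to any of these letters describes the sequence and does not show that a factor binds there.

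Among the wider chaperone network, 22 of 96 annotated genes in 7 lists had an IDR summit within 500 bp, at 21 distinct summits, against 6.09% of all protein-coding genes. Besides chaperones and cofactors, the lists hold stress response regulators and proteases, such as hsf-1, xbp-1 and lonp-1. Without 2 genes listed in error, aha-1 and trap-1, the count was 21 of 94, at 20 distinct summits. The J-domain cochaperones, which deliver substrates to HSP70, had one at 8 of 29 genes. The strongest were dnj-13 (score 401, 215 bp upstream), dnj-12 (379), dnj-9 (376) and dnj-19 (313), and dnj-13 and dnj-12 encode the DNAJB1-type and DNAJA-type partners of cytosolic HSP70. Only 2 of the 8, dnj-9 and dnj-28, were the gene with the nearest 5' end to their summit, so most of these peaks lie closer to the 5' end of another gene.

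Among nucleotide exchange and assembly cofactors 4 of 12 had a summit, against 6.09% of all protein-coding genes. The strongest was at bag-1, a BAG-domain exchange factor of HSP70, with a pooled score of 1007 (rank 48; 502 in replicate 1 and 510 in replicate 2), next in strength to the hsp-60 peak among the members and these lists. The HSP70-HSP90 adaptor gene sti-1 (166, 85 bp upstream) and unc-23, a BAG2-type gene (94.5), had weaker ones. The fourth, aha-1 (151), encodes a bHLH-PAS transcription factor and not a chaperone cofactor, and without it the count was 3 of 11. The heat shock factor gene hsf-1, its binding partner hsb-1 and the mitochondrial exchange factor gene C34C12.8 had none.

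ER chaperones and unfolded protein response genes had a summit in 5 of 16 cases. The disulfide isomerase gene pdi-6 had a score of 536 with its summit 20 bp upstream of its own 5' end, and the hsp-3 peak had a score of 536, with its summit 48 bp upstream of its own. The calreticulin gene crt-1 (234), and the stress response genes xbp-1 (182), pek-1 (rank 1002) and atf-6 (143), encoding a transcription factor, a kinase and a transcription factor, had weaker ones. The gene of the third stress sensor, ire-1, had none. In the HSP90 list 1 of 4 genes had a summit, enpl-1, the ER member of the family (262, 103 bp upstream). One of the 4, trap-1, was listed by name and encodes no HSP90, and without it the count was 1 of 3. The cytosolic hsp-90 had one only in the 1000 bp window or from another annotated transcript start.

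The mitochondrial list had a summit in 2 of 14 cases, at Y22D7AL.10, with the peak it shares with hsp-60, and at phb-2, a prohibitin gene (221, 401 bp upstream). The regulators atfs-1, dve-1 and ubl-5 and the protease genes lonp-1 and clpp-1 had none in the window. Of 7 other HSP70 family genes, 2 had one, F44E5.4 and F44E5.5, adjoining divergent genes that share 1 summit at 11759536 of chromosome II (score 203, at -225 bp and -126 bp). Only 1.84% and 1.89% of the 31-base stretches in these 2 gene bodies are unique in the genome, and 74.2% in their peak, so reads from the 2 copies may not be told apart. The gene hsp-70 had none, and neither did any of 14 small heat shock protein genes, against 6.09% of all protein-coding genes. For a list of this size, 0 of 14 is close to that share. Each list count rests on few genes and was not tested.

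**Figure D3:**
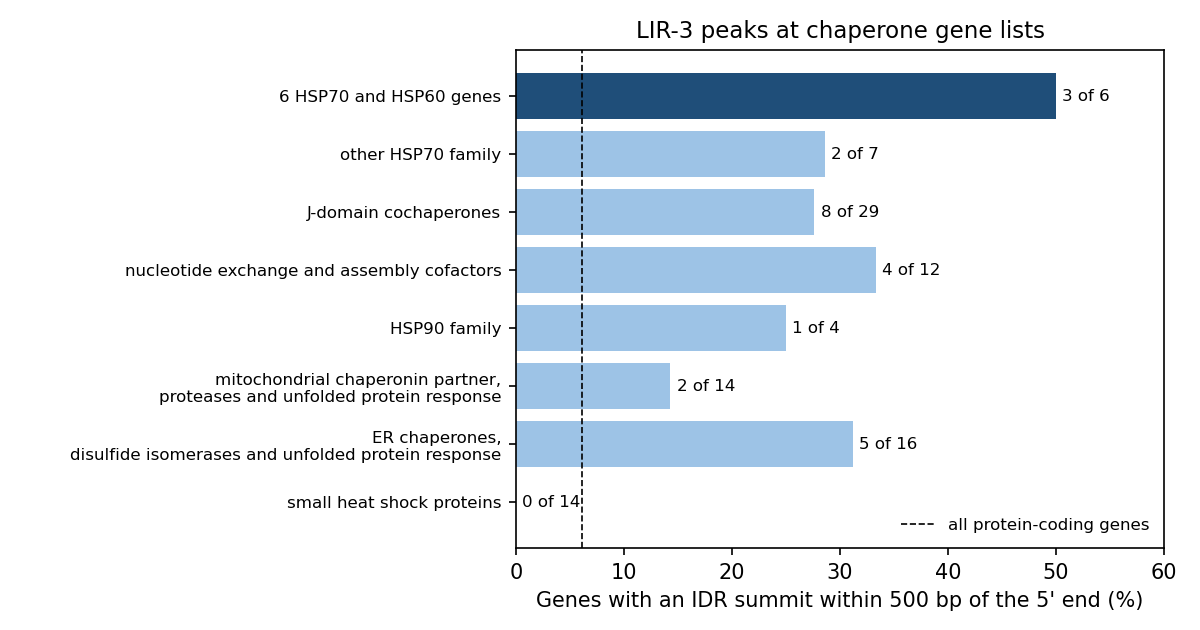
Share of genes with an IDR summit within 500 bp of the annotated 5' end, in percent, for the 6 HSP70 and HSP60 genes (dark bar) and 7 lists of related genes (light bars), with the count beside each bar. The dashed line marks the 6.09% of all protein-coding genes. The cofactor and HSP90 bars include aha-1 and trap-1. The bar of small heat shock proteins is at 0 of 14, and the other bars end to the right of the line.

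The genes whose peaks were most like those of the members were found by the distance between log2 scores over 3 lists, the pooled one and those of both replicates. Closest to hsp-1 were dnj-19 and nhr-47 (distance 0.06 each, both with scores of 313, 155 and 177). Both lie on chromosome V with the same scores in all 3 lists, so they may share 1 peak rather than give 2 separate matches. Closest to hsp-3 were ints-4 (0.018) and zfp-3 (0.061), and closest to hsp-110 were rae-1 (0.037) and btf-1 (0.12). The likeness is one of peak height in 1 condition only.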

How the data were processed

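Per the labels, chromatin of 2 biological replicates was sonicated before precipitation with anti-GFP. According to the deposited descriptions, the authors made 3 lists of peaks and background, for each replicate and for the pooled data, against a control input, and took the IDR set from them. Neither the peak caller, the aligner nor the IDR threshold is given in the sources used here. Each deposited region has a score, the authors' signal value without a unit, and a −log10 q-value, which reaches its highest value, 2.01, at 1458 of 1894 nuclear IDR peaks, which is why the score ordered them. IDR scores equal those of the pooled list at all 1894. Of these peaks 79.8% have the same width of 336 bp, and how this bears on the precision of their summits was not tested. Read depth is unknown. The ce10 lists were not used.

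Summits on ce11 were compared with 5' ends in Ensembl release 115 (WBcel235), and every region ended within the reference chromosomes. Many worm transcripts are trans-spliced, so an annotated 5' end need not be where transcription starts. No test was made, since there is 1 group, and genes and peaks are not replicates. The assignment of summits was tested on simulated data and matched an exhaustive search.

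The members and lists were chosen with earlier results of these data known. By rule the genes named are the 6 members, genes within 500 bp of their summits, up to 4 genes with the strongest peaks in each list and the 2 genes most like each member with a summit in the window. Others, among them dnj-28, atf-6, neighbouring genes and listed genes without a peak, were named after their values were seen. Symbols without a gene of that name in the annotation were left out, and the sequence before hsp-6 is not reported here. RefSeq 5' ends (19423 genes) and the nearest protein-coding gene only were alternatives chosen after seeing the data. Without a replicate, the 1894 strongest nuclear peaks of the other list were used. Python 3.11.15, numpy 2.4.6, pandas 2.3.3 and matplotlib 3.10.9 were used.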

Additional observations from a re-analysis of the deposited data

How the results depend on the processing

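The count of 3 of 6 members fell to 1 (hsp-3) with a 250 bp window and under nearest-gene assignment. It was 3 without either replicate, with the 947 strongest IDR peaks, from the 5' end of any transcript and from RefSeq 5' ends, 2 (hsp-1 and hsp-3) with the nearest protein-coding gene only, and 4, hsp-60 included, with 1000 bp and with any base of the peak. hsp-4 and hsp-6 had no summit under any of these alternatives. The hsp-3 summit lay at -387 bp instead of -48 bp when measured from the transcript C15H9.6a.1. Ranks without replicate 1 or 2 were 395 and 407 for hsp-1, and offsets without a replicate ranged from -429 to -364 bp for hsp-1 and from -271 to -242 bp for hsp-110.

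In the related lists, with the 250 bp window the J-domain count was 5 of 29 and the mitochondrial count 1 of 14, against 3.89% of all protein-coding genes. With the nearest gene only the J-domain count was 2 of 29 and that of other HSP70 genes 1 of 7, against 4.22% of all. With the nearest protein-coding gene only they were 3 of 29 and 1 of 7, against 4.75%. Among the 947 strongest IDR peaks, cofactors fell to 2 of 12 and ER genes to 3 of 16, against 3.71% of all. The cofactor genes left were bag-1 and sti-1. Those lost were unc-23 and aha-1, and aha-1 encodes no chaperone cofactor. The HSP90 count rose to 2 of 4 with 1000 bp (7.87% of all genes) and from any transcript start (6.41%). It was 1 without replicate 1, against 6.03% of all, and 2 without replicate 2, against 6.33%. The gene gained without replicate 2 was trap-1, which encodes no HSP90. Leaving trap-1 out, the count was 1 of 3 without either replicate. Small heat shock proteins had 1 of 14 with 1000 bp (hsp-12.3), against 7.87% of all. They had 1 (hsp-12.6) without replicate 1, against 6.03%, and 0 without replicate 2, against 6.33%. In all, 91 of 111 alternative values were labelled the same as the main one and 20 moved. A member count of 3 that became 4 or 2 was labelled the same. Many of the 91 could not change, since a wider window or the strongest peaks kept the same peak, with its rank and offset. Settings under which a gene lost its summit gave no rank or offset. The tally is therefore no measure of robustness. No paired analysis was possible because there is 1 group and no test. Without read counts, what depth limits cannot be stated.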
